A study of Homo sapiens with 6 samples.

Results

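The baseline transcriptome of U251 cells carrying a control siRNA (siNC) is described here from 3 of the 6 libraries of the series, those of the siNC group, and no other library enters any value except through the authors' scaling. U251 is an established human glioma line. The cells stably carry a doxycycline-induced mutant amyloid precursor protein (APP) with the substitutions K670N and M671L, of which the series design text names only M671L. They were electroporated with control siRNA from a stock of 20 µM, the medium was renewed after 24 h with doxycycline at 1 µg/mL, and RNA was taken at 72 h. The APP transgene, the electroporation and the doxycycline are shared by every group of the study, so an uninduced or untouched culture is not analysed here, and reads of the transgene and of the cell's own APP gene were not separated in the values. The promoter behind the transgene and whether the line is 1 clone are stated in none of the sources used here. The labels call the 3 libraries biological replicates without saying how the cultures were separated.

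The deposited values are regularized-log (rlog) levels, which are log2 read counts scaled for library size and pulled towards each gene's mean over all libraries of the series, most strongly for genes with few reads. There is 1 value per library for each of 21429 genes, between -0.14 and 18.43, and read depth is unknown. Below, the level of a gene is the mean rlog over the 3 siNC libraries, and the SD is the spread between them (n = 3). A long gene gathers more reads than a short one, so single genes are compared in abundance by a per-length level, which is the level minus the log2 of the summed exon length in kilobases in GENCODE 29. Ranks by level and counts in level bands are not corrected for length, and are given as such. The median per-length level was 5.37 over the 20608 genes with a length, many of them noncoding. It was 6.84 over protein-coding genes, which make up most of the lists below. Counts of list members above the median of all genes would be the same or smaller against 6.84. Library medians lay at 7.08, 7.09 and 7.08, and no pair of libraries shared an identical value in any gene. No differences between groups were tested. Everything below is a description with no p-value.

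Glioma lines are thought to descend from astrocyte-like or neural progenitor-like tumour cells. Many express an intermediate filament set of vimentin, nestin and, less reliably in culture, the astrocyte filament GFAP. A mesenchymal state, marked by CD44, matrix proteins and AP-1 factors, is commonly set apart from a proneural state marked by OLIG2, SOX10 and DLL3. Interferon-stimulated genes carry a promoter element that holds GAAA, a gap of 2 bases and GAAA again, bound by IRF proteins and related complexes. Many transcripts of ribosomal proteins and elongation factors start with a C followed by a pyrimidine run.

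Promoter sequences of these last gene groups are printed first, because the interferon group differed most between the 3 control libraries and the ribosomal group was among the most abundant. They come from RefSeq promoters on GRCh38.p14, which span 250 bases before to 50 after each start and held an entry for 12669 of the genes with a value. Capitals mark the interferon motif, which is GAAA, any 2 bases and GAAA, or its reverse complement, which is TTTC, any 2 bases and TTTC. Adjacent matches may overlap. The 6 genes shown have a match and are among the 25 with the largest SD between siNC libraries. LGALS9 and SHFL of them are not on the list of interferon-stimulated genes used. The windows lie at chr11:313985-314058 for IFITM1, chr2:6877617-6877656 for RSAD2, chr10:89327826-89327899 for IFIT3 and chr1:1013369-1013414 for ISG15. Those of LGALS9 and SHFL lie at chr17:27631164-27631203 and chr19:10086259-10086298, and all 6 are on the plus strand.
IFITM1: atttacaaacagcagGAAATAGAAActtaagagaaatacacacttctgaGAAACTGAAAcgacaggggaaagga
RSAD2: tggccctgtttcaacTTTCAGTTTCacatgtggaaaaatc
IFIT3: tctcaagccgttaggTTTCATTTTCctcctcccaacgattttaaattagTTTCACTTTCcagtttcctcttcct
ISG15: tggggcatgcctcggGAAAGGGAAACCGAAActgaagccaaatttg
LGALS9: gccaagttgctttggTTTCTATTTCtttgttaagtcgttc
SHFL: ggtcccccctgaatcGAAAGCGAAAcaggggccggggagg

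The second set shows the start of transcription of abundant translation genes, with 30 bases before it. Only genes with a start that opens with the pyrimidine run are shown. Capitals mark the run of C and T that opens the transcript. The windows are chr6:73521013-73521062 (minus strand) for EEF1A1, chr19:3985444-3985493 (minus) for EEF2, chr12:120201092-120201141 (minus) for RPLP0 and chr6:132814539-132814588 (plus) for RPS12.
EEF1A1: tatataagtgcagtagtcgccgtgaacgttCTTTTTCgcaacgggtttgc
EEF2: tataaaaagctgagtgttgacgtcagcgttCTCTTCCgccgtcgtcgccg
RPLP0: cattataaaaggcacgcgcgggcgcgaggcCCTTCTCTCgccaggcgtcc
RPS12: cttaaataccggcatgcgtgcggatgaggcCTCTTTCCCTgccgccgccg

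Levels spread over the whole range, with 16.4% of genes at 3 to 6, 18.1% at 6 to 9 and 29.9% at 9 to 12. Of all genes, 6101 (28.5%) had a level below 3 and 1523 (7.11%) a level of at least 12. The 14159 protein-coding genes had a median level of 9.31, and 12.5% of them lay below 3. Several noncoding classes were low in most members. The share below 3 was 63.0% of 1785 antisense genes, 61.8% of 1300 long intergenic RNA genes, 60.4% of 1811 processed pseudogenes and 82.7% of 98 small nucleolar RNA genes. It was smaller in others, at 31.9% of 282 transcribed unprocessed pseudogenes, 39.6% of 187 processed transcripts and 44.2% of 156 transcribed processed pseudogenes. These shares are not corrected for length. Per length, small nucleolar RNA genes had a median of 4.63, against 5.37 for all genes. The per-length median was 2.92 in processed pseudogenes, 2.12 in long intergenic RNA genes and 2.07 in antisense genes.

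**Figure D1:**
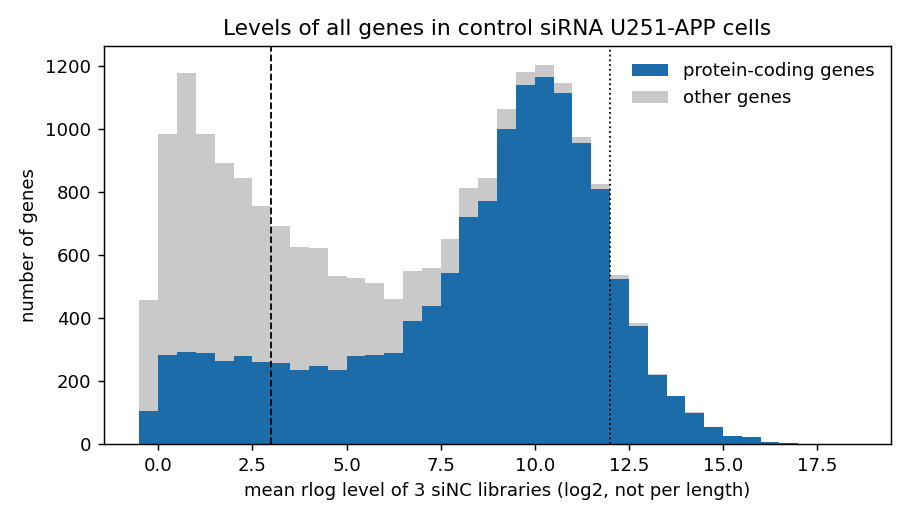
Number of genes (y axis) by mean rlog level of the 3 siNC libraries (x axis, log2, not per length), with protein-coding genes in blue and all other genes stacked on them in grey. The dashed line at 3 and the dotted line at 12 are the limits used in the text, and protein-coding genes form the peak around their median of 9.31 while the other genes lie mostly below 3.

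APP was the gene with the highest level. Its level was 18.29 in siNC replicate 1, 18.43 in replicate 2 and 18.41 in replicate 3 (18.38 ± 0.07, SD, n = 3; ENSG00000142192, GRCh38 chromosome 21, 25880550 to 26171128, minus strand). On a linear scale (2 to the power of rlog) it held 1.18% ± 0.06 of the sum over all genes of a library. It ranked 6 among protein-coding genes per length, at 15.72, after FTL, TMSB10, ACTB, S100A6 and ACTG1. Its relatives lay lower: APLP2 was at 15.32, 15.39 and 15.34 and APLP1 at 10.50, 10.65 and 10.46. Per length, APP was above APLP2 by 3.27 ± 0.05 and above APLP1 by 7.05 ± 0.09 (log2, SD, n = 3). These are 9.65 and 133 times with the summed exon length, and the SDs do not cover the choice of length.

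The 13 genes of the APP family and secretase list all had a level of at least 6, as most protein-coding genes did. Of those, 12.5% lay below 3 and 10.9% at 3 to 6. BACE1, the beta-secretase, was at 12.38, 12.28 and 12.32 (per length 9.48), and its homologue BACE2 at 11.74, 11.91 and 11.88 (per length 8.58). Of the gamma-secretase subunits, APH1A (10.66) and NCSTN (10.16) had the highest per-length levels, followed by PSEN2 (8.37), PSENEN (7.49) and APH1B (6.03). The alpha-secretases ADAM17 and ADAM10 had per-length levels of 7.44 and 7.37. ADAM17 differed more between libraries (11.02, 10.88 and 10.70) than ADAM10 (11.40, 11.39 and 11.38).

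The 24 next highest levels after APP, not per length, were read in order. ACTB, cytoplasmic beta-actin, was at 18.11, 18.13 and 18.17. EEF1A1, which carries aminoacyl-tRNA to the ribosome, was at 17.72, 17.57 and 17.73, and PKM, the last enzyme of glycolysis, at 17.62, 17.64 and 17.62. The others named here were, in falling order of level, ACTG1, FLNA, ENO1, FTL, EEF2, VIM, ITGA3, ANXA2, MYH9, PSAP, GAPDH, RPS2, PPIA, TKT, B2M, HSP90AB1, SPARC, TLN1 and ACTN4, from 17.36 to 15.82. The gene in place 10 (levels 16.73, 16.53 and 16.40) has an identifier with no symbol in the name tables used. The 25 highest genes together held 9.72% ± 0.11 of the linear sum, and the 100 highest 19.2% ± 0.11. Per length, the first 15 protein-coding genes included FTL (16.82), the ferritin light chain, TMSB10 (16.46), ACTB, S100A6 (15.85), ACTG1 (15.78), APP, LGALS1 (15.50), IFI6 (15.13), EEF1A1 (15.10), RPS2, YBX1, TMSB4X, RPS12 and GAPDH (14.55).

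Markers of the astrocyte lineage were split. Of 18 listed genes, 16 had a value to analyse, 6 had a level of at least 12 and 4 a level below 3. Of all protein-coding genes, 10.5% had a level of at least 12 and 12.5% a level below 3. The median per-length level was 7.62, against 5.37 for all genes and 6.84 for protein-coding genes. GFAP was at 15.50, 15.12 and 14.98, highest in replicate 1 (per length 11.61). GJA1, the gap junction protein connexin 43, was at 12.95, 12.58 and 12.79. FABP7 (per length 10.68), a fatty acid binding protein of radial glia, SOX9 (10.18) and CLU (9.71) followed.

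Genes of astrocyte transport and metabolism ranged widely. SLC1A3, a glutamate transporter, was at 11.49, 11.27 and 11.16 (per length 8.66). NFIB, GLUL, the glutamine synthetase, FGFR3, NDRG2, S100B and NFIA had per-length levels of 8.53, 8.26, 6.97, 5.81, 5.12 and 4.03. The other astrocyte glutamate transporter, SLC1A2, was at 1.09, 1.13 and 1.13. ALDH1L1, a folate enzyme used to mark astrocytes, was at 0.78, 0.77 and 0.79, AGT at 0.54, 0.55 and 0.53 and ALDOC at 2.43, 2.35 and 2.34. These 4 low genes had per-length levels between -3.40 and 0.82.

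Neural stem and glioma stem genes had a median per-length level of 8.85, with 18 of 19 analysed and 14 above the median of all genes. NES, the intermediate filament nestin, was at 14.53, 14.47 and 14.47, and SOX2, a neural stem cell factor, at 13.47, 13.40 and 13.38. The inhibitors of differentiation ID3 and ID1 stood at 12.47 and 12.43 per length, beside CD44 (12.46), SOX2 (12.09) and NES (12.02). Exceptions were OLIG2 at 1.63, 1.65 and 1.63, and SOX11 at 0.23, 0.25 and 0.21.

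Mesenchymal glioma genes had the highest median per-length level of the lineage lists, 10.50. Of 31 listed, 30 had a value and 27 were above the median of all genes per length. A level of at least 12 was reached by 18, against 10.5% of all protein-coding genes. The 100 highest of all 21429 genes held 8 of the list. LGALS1 (15.60, 15.67 and 15.64), a galectin, and CD44 (15.95, 15.70 and 15.71), the hyaluronan receptor, had per-length levels of 15.50 and 12.46. S100A11 (per length 13.92), VIM (13.86), TAGLN2 (13.64), ANXA2 (13.03) and ANXA1 (12.52) were also high. CHI3L1, a secreted glycoprotein often used to mark this state, was at 0.23, 0.25 and 0.23. The smooth muscle genes of the list had per-length levels of 4.08 and 4.28, with TAGLN at 6.19, 6.04 and 5.93 and ACTA2 at 5.87, 5.96 and 5.73.

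Of 14 proneural and oligodendrocyte progenitor genes, 9 had a value and 2 were above the all-gene median per length. These were PDGFRA, the receptor of platelet-derived growth factor A, at 12.40, 12.08 and 11.73, and NCAM1 at 11.20, 11.12 and 11.07. SOX10 was at 0.02, 0.03 and 0.00, OLIG2 at 1.63, 1.65 and 1.63 and NKX2-2 at 1.70, 1.76 and 1.73. DLL3 was intermediate, at 6.13, 6.22 and 6.33.

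Lists of other lineages were mostly low, with some members out of place. Neuron markers had 12 of 24 analysed and a median per-length level of 3.62. The highest was MAP2, a dendritic microtubule protein (10.38, 10.60 and 10.40), then SYT1 (8.58, 8.78 and 8.73), while RBFOX3, which encodes the nuclear antigen NeuN, was at 0.22, 0.23 and 0.20. Mature oligodendrocyte markers (7 of 11 analysed) had a median of 0.76, with MBP at 2.64, 2.68 and 2.68 and UGT8 at 9.15, 8.82 and 8.95.

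Blood, vessel and epithelial markers were also low apart from a few members. Microglia and leukocyte markers had 5 of 18 analysed, none with a level above 5.02 (CSF1R), and ITGAM at 0.19, 0.20 and 0.21. CD68 was listed at 0.36, 0.38 and 0.37, and 81.7% of its exon length is shared with another gene on the same strand. Endothelial and mural markers (12 of 14) had a median of 2.30 per length. Among them KDR, a receptor of vascular endothelial growth factor, was at 11.90, 11.75 and 11.86 and MCAM at 11.93, 12.01 and 11.84, but CLDN5 was at 2.46, 2.50 and 2.49, TEK at 0.56, 0.52 and 0.58 and FLT1 at 0.72, 0.68 and 0.72. Epithelial markers (9 of 15) had a median of 2.91, with CDH1, or E-cadherin, at 0.41, 0.45 and 0.43 and KRT18 at 8.02, 8.15 and 8.07.

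The remaining lineage lists held few analysed members. Of 12 melanocyte and neural crest markers, 9 had a value and the median per-length level was 1.98, yet the transcription factors MITF (11.17, 11.22 and 11.19) and TFAP2A (10.39, 10.52 and 10.37) were high. AFP, the fetal serum protein alpha-fetoprotein, was at 7.48, 7.45 and 7.57, while ALB was at 1.67, 1.67 and 1.63. Of 21 germline and cancer-testis genes, 4 had a value. MAGEA3 (11.47, 11.47 and 11.52) and MAGEA6 (11.23, 11.29 and 11.27) led them, and these 2 are near-identical copies whose reads the counting may have split.

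**Figure D2:**
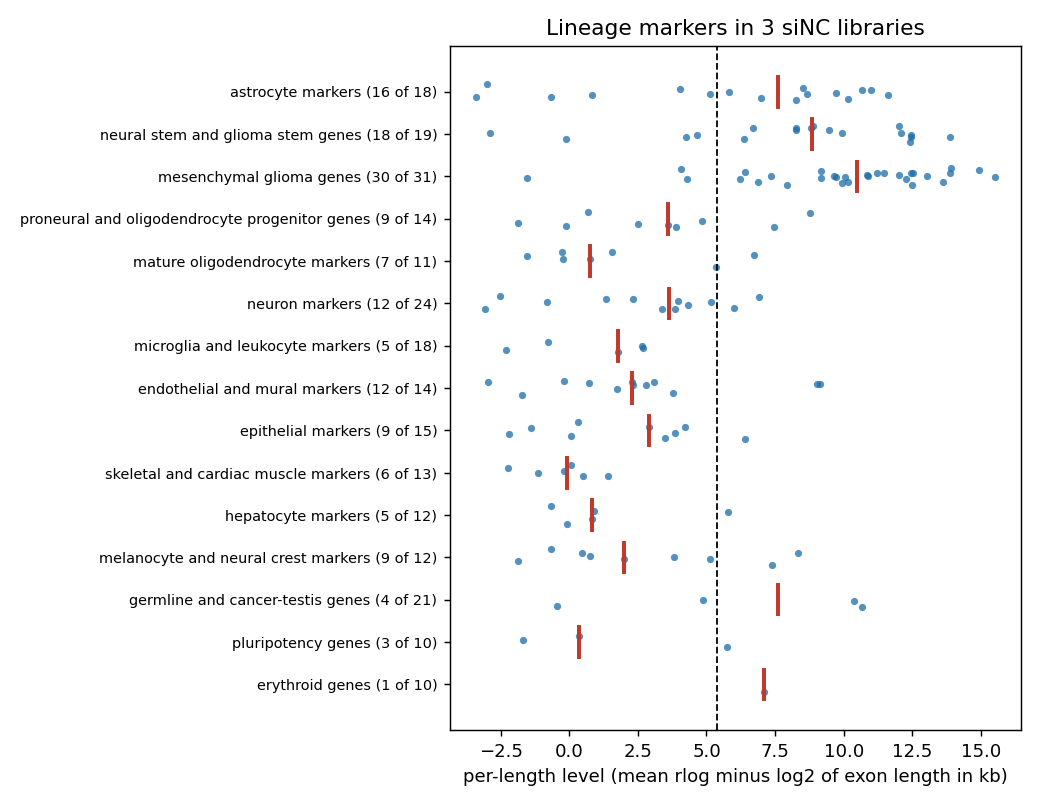
Per-length level (x axis, log2) of each analysed member (blue points) of 15 lineage lists, with the list median as a red bar and the number analysed of the number listed beside each name; vertical scatter within a row has no meaning. The dashed line is the median of all genes, 5.37, and the mesenchymal list has the median farthest to its right, at 10.50.

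Intermediate filament genes ranked VIM, NES, LMNB2, GFAP, LMNA and LMNB1 by per-length level, from 13.86 to 10.61. VIM was above GFAP by 2.25 ± 0.20 and above NES by 1.84 ± 0.06 (log2 per length, SD, n = 3). LMNB2 was at 14.25, 14.27 and 14.32 and LMNA at 14.31, 14.28 and 14.24. KRT10, SYNM, KRT18, KRT8, KRT7, NEFM and PRPH lay between 9.93 and 1.60 per length. KRT19, DES and NEFH had levels of 1.29, 1.10 and 1.10.

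Collagen and matrix genes showed large differences between chains of 1 molecule. Type I collagen is built from 2 alpha-1 chains and 1 alpha-2 chain. COL1A2 was at 15.73, 15.77 and 15.58, while COL1A1 was at 9.67, 9.67 and 9.19. Per length the alpha-2 gene was higher by 6.00 ± 0.18 (log2), or 63.8 times. The paired chains of type IV and type VI differed far less: COL4A2 was above COL4A1 by 1.14 ± 0.01 and COL6A1 above COL6A2 by 0.38 ± 0.06. SPARC (per length 13.62), TNC (12.51), SPP1 (12.47) and TGFBI (11.45) led 26 analysed matrix glycoproteins and proteoglycans. Of 14 matrix metalloproteinases, MMP14 (12.73, 13.03 and 12.81) and MMP2 (12.86, 13.05 and 12.91) had a level of at least 12, and MMP1 was at 2.16, 2.22 and 2.22. ITGA3, the laminin receptor subunit, led 23 integrin genes (12.91 per length), before ITGB4 (11.57) and ITGB1 (11.47). ITGB4, whose partner is the alpha-6 chain, was above ITGA6 by 3.31 ± 0.08.

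All 45 receptor tyrosine kinases listed had a value. A level of at least 12 was found in 10 and a level below 3 in 11, against 10.5% and 12.5% of protein-coding genes. AXL, at 14.46, 14.33 and 14.49 (per length 12.06), was followed per length by EPHA2 (11.86), EPHA3 (10.65), MET (10.16) and PTK7 (9.73). NTRK2, FLT1 and FLT4 were lowest, at -3.50, -2.94 and -2.56 per length. Of 23 glioblastoma driver genes, 20 had a value, while CCND2, CDKN2C and MGMT are not analysed here. CCND1, the G1 cyclin, was highest per length (10.91), at 13.13, 13.13 and 13.28, and its kinase CDK4 was at 11.72, 11.83 and 11.84. EGFR was at 12.91, 12.85 and 12.79. Levels of IDH1, FGFR1, CDK6, RB1, MDM2, PIK3CA, IDH2, MDM4, PIK3R1, NF1, FGFR3 and ATRX lay between 12.01 and 9.18. TERT, the catalytic subunit of telomerase, was at 3.66, 3.90 and 3.73.

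The 9p21 block, a region often deleted in glioma, was read gene by gene along the chromosome. MLLT3 (8.56), FOCAD (11.19), HACD4 (1.31), IFNB1 (1.72), KLHL9 (11.82), IFNA1 (1.31), IFNE (3.66) and MTAP (11.74) came first. CDKN2A, CDKN2B, CDKN2B-AS1, IFNW1 and TUSC1 are not analysed here. DMRTA1 (9.71), ELAVL2 (3.66), CAAP1 (10.80), PLAA (11.72) and IFT74 (7.53) lay beyond. MTAP, a methionine salvage enzyme next to CDKN2A, was at 11.72, 11.70 and 11.80 and DMRTA1, on the other side of CDKN2A, at 9.63, 9.71 and 9.78.

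Transcription factors of position and lineage were read next. Of the AP-1, TEAD, RUNX, STAT, CEBP and NFI group, JUN (13.29, 13.42 and 13.41) and JUND (12.06, 12.29 and 12.01) were among the highest per length, at 11.55 and 11.22. FOS was at 4.68, 4.45 and 4.40 and RUNX3 at 0.36, 0.36 and 0.35. HOX genes, silent in most of the adult forebrain, had values in all 4 clusters, and 32 of the 34 with a value had a level of at least 3. That is near the share of all protein-coding genes, of which 12.5% lay below 3. Median per-length levels were 5.21 in the HOXA, 6.27 in the HOXB, 5.79 in the HOXC and 6.92 in the HOXD cluster. The median of protein-coding genes was 6.84. HOXB3, at 12.55, 12.60 and 12.53, was highest per length (9.66), followed by HOXB7 (9.27), HOXB9 (8.96) and HOXC10 (8.81). HOXD1 was at -0.02, -0.01 and -0.04. Among secreted factors, PTN (per length 11.25), MDK (11.13), TGFB1 (11.02), VEGFB (10.96) and GDF15 (10.85) were highest, and IGF2 had a level of 0.87.

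Housekeeping groups stood well above the all-gene median. Cytosolic ribosomal protein genes had a median per-length level of 12.14 for 47 of the large subunit and 12.18 for 31 of the small one. RPL13, which the study targets in its other group, was at 14.05, 14.16 and 14.18 here (14.13 ± 0.07, SD, n = 3; ENSG00000167526, GRCh38 chromosome 16, 89560657 to 89566828, plus strand). RPL17 (6.65, 6.60 and 6.79), RPL36A (6.99, 6.72 and 6.79), RPS18 (7.31, 7.20 and 7.20) and RPS10 (7.49, 7.32 and 7.52) were among the lowest per length, between 4.84 and 6.31. Glycolysis genes had a median of 11.01 per length, led by GAPDH (14.55), PKM (14.53) and ENO1 (14.29). LDHB, at 13.69, 13.54 and 13.70, exceeded LDHA, at 9.73, 9.48 and 9.69, by 5.07 ± 0.05 per length, which is 33.5 times. The 38 nuclear-encoded oxidative phosphorylation genes had a median of 10.28, and 36 were above the all-gene median. Actins, LDHA, GAPDH, EEF1A1 and ribosomal protein genes have near-identical pseudogene copies, and no source used here states how reads shared between copies were counted, so their levels are uncertain.

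The start-site pyrimidine run printed above was searched as C followed by 4 bases of C or T. It opened 56% of 50 promoters of large-subunit ribosomal genes and 66.7% of 27 of the small subunit, against 4.07% of all 35116 RefSeq promoters. Among the 117 promoters of the 100 highest genes it opened 14.5%. The share was 8.08% for genes at 12 or above and 4.94% for all genes with a value. The 100 highest genes hold 10 large-subunit and 6 small-subunit ribosomal genes, so these groups overlap. CpG dinucleotides rose with level in RefSeq promoters, from a median of 12 in genes below 3 to 19, 24, 26 and 27 in genes at 3 to 6, 6 to 9, 9 to 12 and at least 12. A TATAAA in the 40 bases before the start was found in 3.41% of promoters of genes below 3, in 1.03% at 9 to 12 and in 2.69% at 12 or above.

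Some low levels went with position and with the annotation. Between HLA-F and KIFC1 on chromosome 6 (29722775 to 33409924), 21 protein-coding genes with a value had a median level of 2.49, 12 were below 3 and none reached 9. The other 617 protein-coding genes of the chromosome had a median of 9.42, with 12.3% below 3 and 56.6% at 9 or above. Per length the medians were 0.87 and 7.03. The window was picked after its values were seen, and the 2 Mb block from 30 to 32 Mb had the lowest median of 664 such blocks with at least 8 protein-coding genes. Inside the HLA-F to KIFC1 window TAPBP, which helps load peptides on class I molecules, was at 4.68, 4.62 and 4.61, BRD2 at 4.81, 4.95 and 4.89 and DAXX at 2.95 on average. B2M, the light chain of class I molecules, which is encoded on chromosome 15, was at 15.95, 16.08 and 15.75.

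Protein-coding genes that share exons with another gene on the same strand were lower too. With under 1% of exon length shared on either strand, 7835 genes had a median level of 9.40. The median was 9.08 at 1 to 25% on the same strand, 6.30 at 25 to 50%, 5.60 at 50 to 75% and 3.19 at 75% or more (69 genes). Per length the medians went from 6.94 to 1.78 over the same range. For overlap on the opposite strand the median level was 7.26 at 75% or more (25 genes). Of the low ribosomal genes named above, RPS10 shares 39.4% and RPL17 32.7% of its exon length on the same strand, and RPL36A 8.4%. RPS18 shares none but lies in the chromosome 6 window, and LDHA, COL1A1 and CHI3L1 share none. The part of overlap and of position in any low level was not tested, so a low level in such a gene is a low value in this table.

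**Figure D3:**
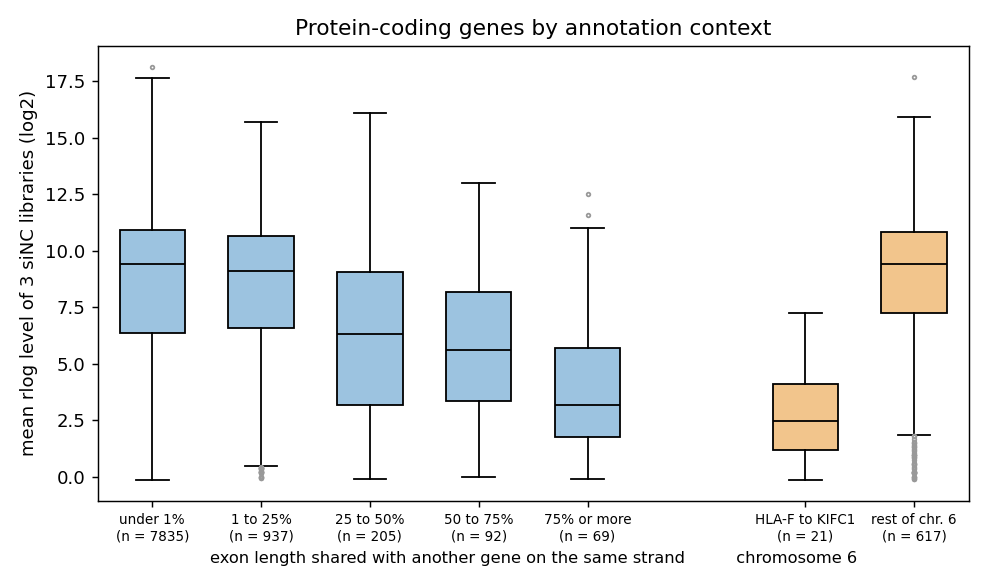
Mean rlog level of protein-coding genes in the 3 siNC libraries (y axis, log2) by the share of exon length held in common with another gene on the same strand (blue, genes with under 1% shared on the opposite strand) and for the chromosome 6 window against the rest of that chromosome (orange). Boxes span the quartiles, the line is the median, whiskers reach 1.5 times the box height and points lie beyond; medians fall from 9.40 to 3.19 with overlap and stand at 2.49 in the window against 9.42 outside it.

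The 3 control libraries were close to each other in most genes. Over the 15328 genes with a level of at least 3, the median SD was 0.0668 and 74.8% of genes had an SD under 0.1. Pearson's r between libraries across these genes was 0.9988 to 0.9991, a description in which genes are not independent replicates. The median absolute difference was 0.087 between replicates 1 and 2, 0.076 between 1 and 3 and 0.069 between 2 and 3. By level, the median SD was 0.020 below 3, 0.057 at 3 to 6, 0.083 at 6 to 9, 0.067 at 9 to 12 and 0.062 at 12 or above. Because rlog values of genes with few reads are pulled together by construction, the small SD of low genes is not a sign of steadier expression.

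Interferon-stimulated genes differed most between the controls. IFITM1, an antiviral membrane protein, had the largest SD of all genes with a level of at least 5, at 9.15, 9.50 and 7.81 (SD 0.89; ENSG00000185885). OAS2, a sensor of double-stranded RNA, was at 11.48, 11.64 and 10.30. RSAD2, or viperin, was at 9.73, 9.89 and 8.64. IFITM1 shares 32.5% of its exon length with another gene on the same strand, while OAS2 and RSAD2 share none. In each of these replicate 3 was low and replicates 1 and 2 were close together.

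The same order of libraries ran through the list. Of 42 interferon-stimulated genes, 41 had a level of at least 3. Replicate 3 was lowest in 40 of the 41 and replicate 2 highest in 32, against 29.7% and 35.4% of all 15328 genes. The SD was at least 0.2 in 37 of the 41, against 2.41% of all genes, and the list's median SD was 0.420. The median deviation from the gene's mean was 0.14 in replicate 1, 0.33 in replicate 2 and -0.46 in replicate 3. Without replicate 3 the list's median SD was 0.112, against 0.0616 for all genes. Replicate 3 was picked as the lowest library, so a fall was fixed in advance. The list was drawn up with earlier results of these data known.

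Abundant members moved with the rest. ISG15, a ubiquitin-like modifier, was at 14.40, 14.74 and 13.57, and IFI6, a mitochondrial antiviral protein, at 15.04, 15.42 and 14.29. IFIT3 (12.30, 12.26 and 11.11), MX1 (12.89, 13.13 and 12.09) and MX2 (11.37, 11.64 and 10.37) had the same low replicate. EPSTI1, the exception below 3, was at 0.21, 0.19 and 0.21.

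Interferon genes and receptors were chosen after their values were seen. The interferon genes IFNB1 (1.73, 1.72 and 1.72), IFNA1 (1.34, 1.32 and 1.27) and IFNE (3.69, 3.70 and 3.60) were lowest in replicate 3, at levels where rlog pulls libraries together, so their closeness carries little information. IFNAR1, a chain of the receptor of interferon alpha and beta, was at 10.54, 10.56 and 10.57, and IFNAR2 at 8.06, 8.12 and 8.11. IFNLR1 was at 7.40, 7.59 and 7.47. Replicate 3 was not the lowest library in these 3 receptor genes.

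**Figure D4:**
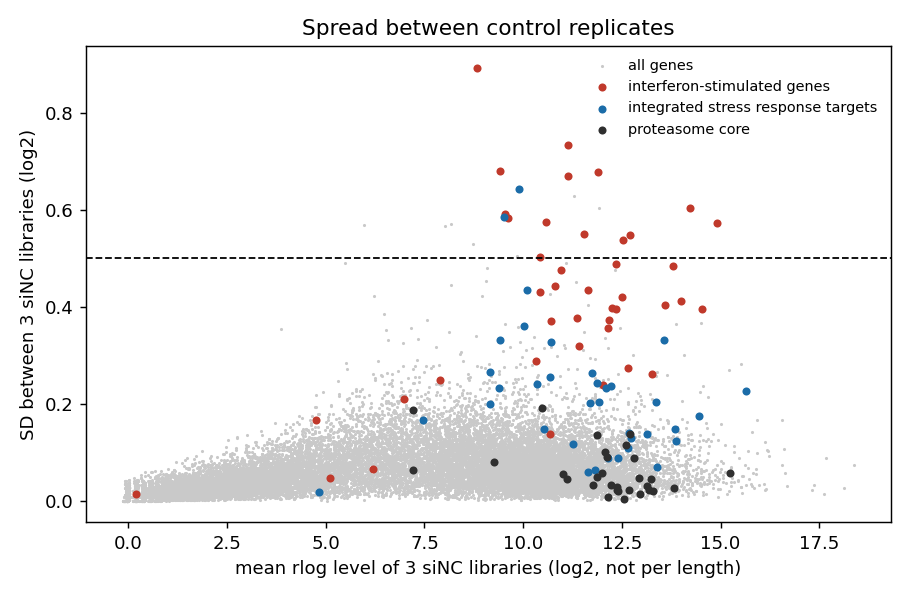
SD between the 3 siNC libraries (y axis, log2) against the mean rlog level (x axis, log2, not per length) for all genes (grey), interferon-stimulated genes (red), integrated stress response targets (blue) and proteasome core genes (black). The dashed line marks an SD of 0.5, above which lie 24 genes with a level of at least 5, and IFITM1 is the highest point.

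Counted from the top, 24 genes with a level of at least 5 had an SD of 0.5 or more. Replicate 3 was the library farthest from the others in 19 of them, replicate 1 in 4 and replicate 2 in 1. Over all 15328 genes the farthest library was replicate 1 in 39.5%, replicate 2 in 33.8% and replicate 3 in 26.7%. The 25 genes of largest SD held 14 of the interferon list: IFITM1, OAS2, RSAD2, IFIT3, MX2, ISG15, CMPK2, TRIM22, OASL, IFI6, IFI44L, MX1, IFI27 and HERC6. Not on the interferon list but with the same low replicate 3 were SLC15A3 (9.87, 10.13 and 9.02), a lysosomal transporter, and LGALS9 (8.36, 8.62 and 7.53), a galectin. UBA7 (8.93, 9.13 and 8.13), the enzyme that activates ISG15, SHFL (10.05, 10.21 and 9.27), an antiviral translation inhibitor, and TRANK1 (11.32, 11.42 and 10.52) had it as well.

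The interferon motif printed above, on either strand, was in a promoter of 24 of the 33 interferon-stimulated genes with a RefSeq promoter entry (72.7%). It was in 10 of the 17 genes of largest SD that had one (58.8%), LGALS9 and SHFL among them. The share was 4.38% of all 27305 genes with a promoter and 3.86% of those with a value. A match is a match of letters in a window of 300 bases, and binding was not measured.

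Targets of the integrated stress response, the ATF4 programme that answers amino acid shortage and misfolded protein, had another order. CHAC1, which degrades glutathione, was at 9.15, 10.34 and 10.17. DDIT4, an inhibitor of mTORC1, was at 8.88, 10.03 and 9.65, and SLC7A5, an amino acid transporter, at 13.19, 13.84 and 13.63. Replicate 1 was low in each.

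All 36 analysed targets of the stress response had a level of at least 3. Replicate 1 was lowest in 35 of the 36 and replicate 2 highest in 31, against 37.0% and 35.4% of all genes. The SD was at least 0.2 in 19, against 2.41% of all genes, and the median SD was 0.202. Without replicate 1 it was 0.0518, against 0.0488 for all genes. That library was picked as the lowest, so a fall was fixed in advance. This list too was drawn up with earlier results of these data known. ATF4 itself was at 13.13, 13.53 and 13.41 and PHGDH, the first enzyme of serine synthesis, at 15.40, 15.84 and 15.71. GDF15, a stress cytokine from other lists, shared the low replicate 1 (11.29, 12.49 and 11.95). TGATGCAA, searched on both strands, was in a promoter of 24.1% of 29 of these genes, against 1.08% of all genes. Endoplasmic reticulum chaperones, which serve another arm of the response to misfolded protein, had a median SD of 0.04 over 19 genes. None had an SD of at least 0.2. Replicate 1 was lowest in 5 of the 19 and replicate 3 in 9. CALR was at 15.54, 15.57 and 15.55, with an SD of 0.015. CANX (SD 0.158) and HSPA5 (SD 0.115) differed more between libraries. Both were highest in replicate 1, the library in which the stress response targets were low.

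**Figure D5:**
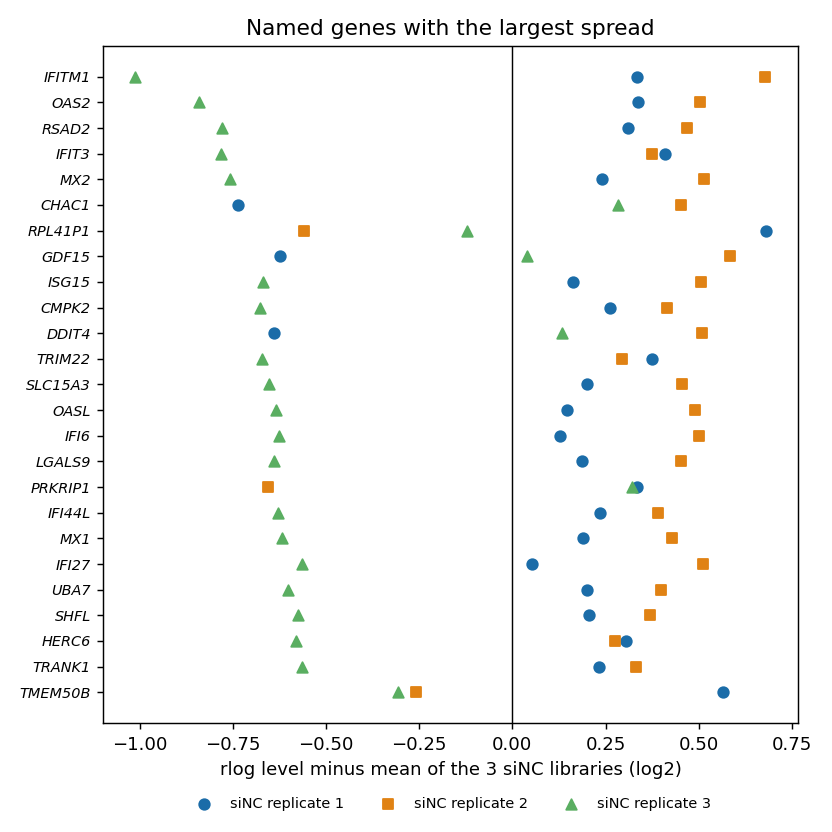
Deviation of each siNC library from the gene's mean of the 3 (x axis, log2) for the 25 named genes of largest SD among genes with a level of at least 5 (y axis, in order of SD), with circles for replicate 1, squares for replicate 2 and triangles for replicate 3. Triangles lie far to the left in the interferon-stimulated genes, down to IFITM1 at 7.81 against 9.15 and 9.50, and circles lie to the left in CHAC1, GDF15 and DDIT4.

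Other groups also had a library order. Mitotic genes were lowest in replicate 2 in 31 of 40, DNA replication genes in 23 of 31 and proteasome genes in 25 of 30, against 33.3% of all genes, with median SDs of 0.098, 0.066 and 0.046. Ribosomal protein genes were highest in replicate 3 in 41 of 47 of the large subunit and 27 of 31 of the small one, against 29.2% of all genes, with median SDs of 0.060 and 0.062. The sterol and fatty acid list was lowest in replicate 3 in 21 of 30 genes, against 29.7% of all genes. Its median SD was 0.109, and 8 of the 30 had an SD of at least 0.2, against 2.41% of all genes, among them SCD, the stearoyl desaturase (14.14, 14.01 and 13.45). Collagens with a level of at least 3 were lowest in replicate 3 in 19 of 28 genes, against 29.7% of all genes. They were highest in replicate 2 in 17, against 35.4%. Their median SD was 0.112, and 2 of the 28 had an SD of at least 0.2. Members of 1 list share their libraries and are not independent of each other.

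Outside these lists, RPL41P1 (11.97, 10.73 and 11.17), an 81-base pseudogene copy of RPL41, had an SD of 0.63. Its parent RPL41 was at 14.27, 14.70 and 14.67, and reads of the copy and the parent may have been split in counting. PRKRIP1 (8.35, 7.36 and 8.33) was low in replicate 2 alone. An unnamed gene with a level of 5.97 completes the 25. At the other end, EXOC3, CDK12, NTPCR, LAPTM4B, SUPT6H, DPYSL4, CASP9, SERPINB6, CCDC12 and JARID2 had the 10 smallest SDs among genes with a level of at least 9, all under 0.003. Of common reference genes, TBP was at 9.61, 9.57 and 9.61 and GAPDH at 16.14, 16.10 and 16.14. HPRT1, at 11.60, 11.38 and 11.54, had an SD of 0.115, above the median of all genes.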

How the data were processed

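Total RNA was sequenced, and the authors deposited rlog values on the log2 scale, with Ensembl identifiers. Tools listed in the submitters' processing notes are DESeq2, HTSeq (0.6.1p1), TopHat and Trimmomatic (0.33), with GRCh38.p7 as the build and no settings. No source used here states whether strand was kept in counting. Through scaling and shrinkage, values also depend on the libraries not described, by an amount that was not measured. Names came from a table of current gene names (20499 of 21429 identifiers) and GENCODE 29 (20608), which also gave positions, overlaps and exon lengths; 821 were in neither. The table held 0 mitochondrial genes.

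Means, SDs (n - 1), ranks and list medians were computed with Python 3.11.15, numpy 2.4.6 and pandas 2.3.3, figures with matplotlib 3.10.9, and the calculations were tested on simulated data. The genes named are the 25 highest levels, 15 highest per-length levels, 25 largest SDs (level of at least 5), 10 smallest SDs (level of at least 9), up to 5 highest and 3 lowest per length of each list, and all members of 5 short lists, APP and RPL13. Some genes picked by this rule are not reported here. Other genes, such as BRD2, DAXX, TBP, HPRT1, RPL41 and the interferon receptors, were chosen after their values were seen. Lists and members were chosen with earlier results of these data known, and the gene families were adjusted after the data were seen. Motifs were searched in RefSeq promoters. Alternatives were other limits, scalings, lengths, filters and leaving out each library.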

Additional observations from a re-analysis of the deposited data

How the results depend on the processing

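The count of genes below 3 was 2621 with a limit of 1, and the count of genes at 12 or above was 600 with a limit of 13. APP ranked 1 in level, 6 per length with the summed exon length and 3 with the median transcript length. The 25 highest genes held 8.84% of the linear sum with APP left out. The median SD was 0.0497 with no filter on level. Leaving out 1 siNC library at a time gave a median SD of 0.0489 to 0.0616, and 12 to 37 genes with an SD of at least 0.5, where all 3 libraries gave 24. The count was 12 without siNC replicate 3 and 37 without siNC replicate 1. In the same leave-one-out runs the count below 3 was 6097 to 6106, the count at 12 or above 1526 to 1539, the rank of APP 1 and the share of the 25 highest genes 9.68% to 9.78%. Median centring and quantile scaling kept each of these counts, the rank, the share and the median SD within 1.5 times. So did a median in place of the mean for the counts below 3 and at 12 or above, the rank and the share, the values it was run for. Alternatives chosen after seeing the data, without the chromosome 6 window or without genes overlapped by 25% or more, left 6086 and 5843 genes below 3.

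With the median transcript length, the median per-length level of all genes rose by 1.51 and those of the 46 lists by a median of 2.01 (at most 3.36). Leaving out a library moved a list median by at most 0.365. Per-length differences between gene pairs were computed with the summed exon length only. Their SDs cover the spread between libraries and not the choice of length. No paired analysis was possible because 1 group is described and no groups are compared. Read depth is unknown, rlog shrinks low genes, and 3 libraries give a coarse SD, so a low level is not shown to be absence of the transcript.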
